A study of Homo sapiens with 18 samples.

Results

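The transcripts of 10 Fanconi anemia genes were followed after knockdown of OFD1 in 3 human pancreatic cancer cell lines. The 10 genes were taken by symbol from the 26668 genes listed in the deposited table, and all 10 were listed. They were the 8 core complex genes FANCA, FANCB, FANCC, FANCE, FANCF, FANCG, FANCL and FANCM, and the pair FANCD2 and FANCI, whose products form the ID2 complex. RNA-seq libraries came from PANC-1, MIA PaCa-2 and PaTu 8988T cells, with 3 control and 3 knockdown libraries per line and 18 libraries in all. Knockdown libraries were labelled with the genotype shOFD1 and came from cells given doxycycline for 72 h to induce a short hairpin RNA against OFD1, a protein of centrioles and centriolar satellites. Control libraries carried the title shControl, the genotype WT and the treatment label "no treatment", while the methods of the study describe inducible shOFD1 cells given DMSO. Whether the controls carried the uninduced OFD1 hairpin or a control hairpin is not settled by these sources. Only the knockdown cultures received doxycycline, so hairpin and drug cannot be told apart here. The series text places the controls at day 0 and the knockdown at day 3, while the methods give 72 h for both DMSO and doxycycline. Whether time in culture differed too is thus not settled, and if it did, it cannot be told apart from hairpin and drug. Whether the 3 libraries of a group came from separate cultures is not stated, and the p-values measure only the spread between these libraries.

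The Fanconi anemia pathway repairs crosslinks between the strands of DNA, chiefly where they stall replication forks. FANCM, a DNA translocase, helps to bring the core complex to the lesion. The core complex is a ubiquitin ligase in which FANCL is the RING subunit, FANCB lies beside FANCL in the catalytic module, FANCA and FANCG bind each other, and FANCC, FANCE and FANCF form the module that contacts the substrate. With the E2 enzyme UBE2T, it attaches ubiquitin to FANCD2 and FANCI, which then clamp onto DNA and help to bring in nucleases, translesion polymerases and homologous recombination proteins. USP1 with WDR48 removes the ubiquitin again. Loss of the pathway sensitises cells to crosslinking drugs, and many of its genes are transcribed with the DNA replication programme.

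The deposited values are FPKM, in which the reads of a gene are divided by gene length and by the size of the library. The targeted gene, OFD1, fell in every line by the limma fit used throughout. In PANC-1 it went from 5.43 to 2.55 FPKM (log2 fold change -1.07, SE 0.090, adjusted p = 2.7e-06), in PaTu 8988T from 2.06 to 0.911 FPKM (-1.10, SE 0.10, adjusted p = 5.47e-05) and in MIA PaCa-2 from 2.85 to 1.82 FPKM (-0.61, SE 0.16, adjusted p = 0.0232). The MIA PaCa-2 call was lost without control library 1 or 3 or any 1 knockdown library (adjusted p between 0.0608 and 0.0899) and was firmer without control library 2 (-0.76, adjusted p = 8.7e-05). Library depth recovered from the values ran from 32486477 to 39797537 reads, and the 10 genes had between 76 and 4744 reads per library. The keratins KRT8 and KRT18 were at 316 FPKM or more in every library, EPCAM stayed at or below 0.0991 FPKM in MIA PaCa-2, and KRT19 stayed at or below 0.0194 FPKM in PaTu 8988T. CDH1, also epithelial, was at 5.95 to 8.48 FPKM in PANC-1 and at or below 0.0321 FPKM in MIA PaCa-2 and 0.378 FPKM in PaTu 8988T. VIM, a marker of a mesenchymal state, was at 580 FPKM or more in every library. Of the other cell types' markers, PECAM1 was near 0 throughout, PTPRC reached 6.22 FPKM in MIA PaCa-2 and COL1A1 reached 26.6 FPKM in PANC-1. Control library 2 of MIA PaCa-2 stood apart, with a median absolute log2 difference of 0.393 from its 2 companions against 0.0510 to 0.0930 in libraries of the other 5 groups. MIA PaCa-2 results that move without it are given both ways where a fit without it was kept. The source labels of replicates 2 and 3 of both PaTu 8988T groups name PaTu 8989T and PaTu 8990T, and the titles were followed.

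Promoter windows of 300 bases were read for 9 of the 10 genes from the RefSeq table of GRCh38.p14, with FANCI not in the table. Each window runs from 250 bases before to 50 bases after the annotated start and is printed 5′ to 3′ on the strand of the gene. Exact matches to the E2F words TTTGGCGC, TTTCGCGC and TTTCCCGC were sought on both strands, since E2F factors bind many promoters of replication and repair genes. At least 1 of these words was present in 2.72% of all 34943 promoters in the table. FANCD2 held 1 word, 1 of the 2 FANCC windows held 2, and the windows of FANCA, FANCB, FANCE, FANCF, FANCG, FANCL and FANCM and the other FANCC window held none. The CHR words TTTGAA and TTTAAA, present in 24.0% of promoters, matched once, in the same FANCC window. The windows of FANCD2 (chr3:10026187-10026486, plus strand), the gene that changed most in PANC-1, of FANCC (chr9:95317660-95317959, minus strand), which holds the most words, and of FANCL (chr2:58241276-58241575, minus strand), which moved the other way from FANCD2, are shown with E2F words in capitals.
FANCD2: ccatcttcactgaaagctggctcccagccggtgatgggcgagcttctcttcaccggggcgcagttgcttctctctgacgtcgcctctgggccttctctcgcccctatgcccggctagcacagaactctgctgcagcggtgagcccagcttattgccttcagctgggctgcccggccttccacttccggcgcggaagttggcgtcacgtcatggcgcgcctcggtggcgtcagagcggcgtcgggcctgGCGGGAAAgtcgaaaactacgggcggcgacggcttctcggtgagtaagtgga
FANCC: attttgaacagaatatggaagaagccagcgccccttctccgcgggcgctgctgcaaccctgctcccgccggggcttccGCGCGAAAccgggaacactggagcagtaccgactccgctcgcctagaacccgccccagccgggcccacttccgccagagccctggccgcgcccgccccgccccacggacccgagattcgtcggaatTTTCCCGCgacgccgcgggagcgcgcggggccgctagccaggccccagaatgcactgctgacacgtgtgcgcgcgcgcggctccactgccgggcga
FANCL: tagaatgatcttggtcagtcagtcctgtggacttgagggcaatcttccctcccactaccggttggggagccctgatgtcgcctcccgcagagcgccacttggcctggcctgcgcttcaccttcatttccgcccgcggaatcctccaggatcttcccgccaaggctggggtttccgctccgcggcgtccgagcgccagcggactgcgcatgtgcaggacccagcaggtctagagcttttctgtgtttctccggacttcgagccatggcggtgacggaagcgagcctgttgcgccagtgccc
The word in FANCD2 is TTTCCCGC read on the reverse strand, from 2 bases before the start and running across it. In FANCC, TTTCGCGC lies on the reverse strand from 172 bases before the start and TTTCCCGC on the given strand from 46 bases before it. FANCL holds none of the E2F words in capitals. A match is a description of these letters only.

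In PANC-1 the FANCD2 and FANCI transcripts and 3 core transcripts fell while FANCL and FANCF rose. Of the 9 genes tested there, 5 were lower (FANCA, FANCD2, FANCE, FANCG and FANCI) and 2 were higher at an adjusted p under 0.05 (limma, Benjamini-Hochberg). Over all 10902 genes tested in PANC-1, 32.2% were lower and 40.1% were higher by the same rule. FANCD2 alone also passed the stricter rule of the study, a fold change below 0.5, which 4.84% of all genes passed. The 3 knockdown libraries lay entirely below or above the 3 controls for 7 of the 9 genes, against 75.0% of all genes. The median log2 fold change was -0.57 over the 9 genes and 0.06 over all genes.

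In MIA PaCa-2, FANCA, FANCC and FANCG fell and FANCF rose among the 10 genes tested. Over all 10758 genes tested, 21.7% were lower and 18.7% were higher. Knockdown and control libraries were separate for 6 of the 10 genes, against 59.3% of all genes. With all 6 libraries, the median log2 fold change was -0.06 over the 10 genes and -0.03 over all genes. Without control library 2, the calls became 6 lower and 2 higher, and those over all genes became 39.8% lower and 35.4% higher. The lower genes were FANCA (-0.33), FANCB (-0.27), FANCC (-0.37), FANCD2 (-0.26), FANCG (-0.47) and FANCI (-0.14). FANCF (0.38) and FANCL (0.24) were higher, and FANCE (0.07) and FANCM (-0.09) were not called. The median over all genes was -0.03 in that fit.

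In PaTu 8988T no member fell and 5 rose, FANCA, FANCC, FANCE, FANCI and FANCL. By the same limma fit, 1 member (FANCD2) was lower there at an unadjusted p under 0.05, and voom on recovered reads called it lower. Over all 10698 genes tested there, 18.5% were lower and 20.9% were higher. The 2 groups of libraries were apart for 6 of the 10 genes, against 51.9% of all genes. The median log2 fold change was 0.10 over the 10 genes and 0.03 over all genes. In each line the share of the 10 genes with separate libraries was thus near that of all genes.

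**Figure D1:**
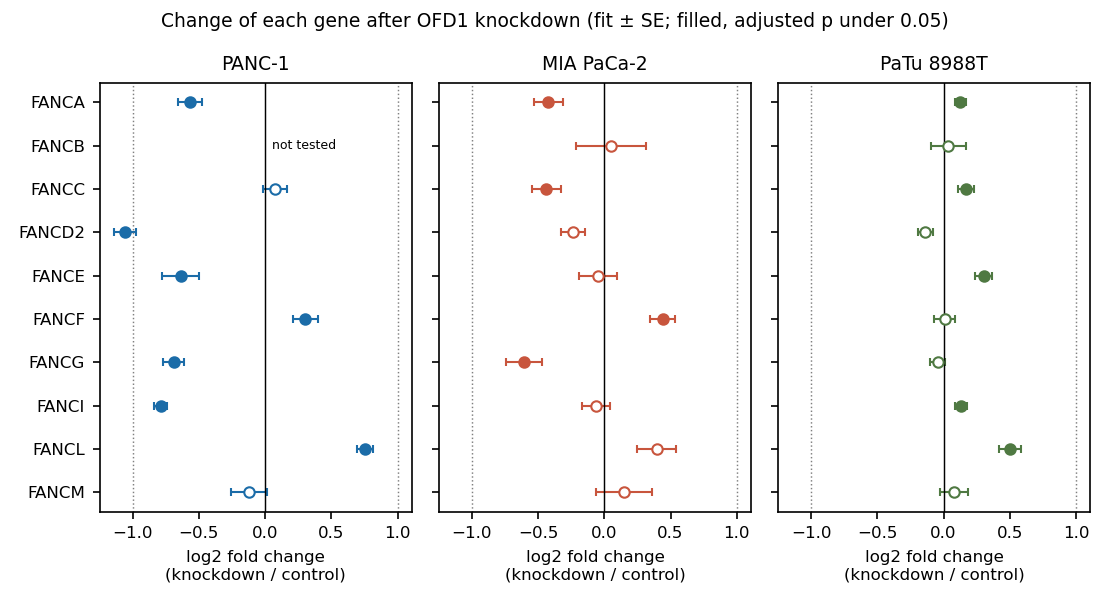
Log2 fold change of each gene after OFD1 knockdown, as fitted by limma on log2(FPKM + 0.1), with bars of 1 SE, in PANC-1, MIA PaCa-2 and PaTu 8988T. Filled points have an adjusted p under 0.05, dotted lines mark a log2 fold change of 1 in either direction, and FANCD2 in PANC-1 is the point past such a line, at -1.06.

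FANCD2 (chromosome 3, 10026414 to 10101930, plus strand, GRCh38) encodes the substrate whose ubiquitinated form marks an active pathway. In PANC-1 its controls were at 9.76, 8.24 and 10.01 FPKM and its knockdown libraries at 4.12, 4.59 and 4.53 FPKM. The groups were far apart, with the highest knockdown library below the lowest control. The mean fell to 47.3% of control (log2 fold change -1.06, SE 0.083, adjusted p = 1.52e-06), and the call held in all 16 alternatives, between -1.15 and -0.93. The MIA PaCa-2 controls were at 6.12, 5.999 and 6.40 FPKM and the knockdown libraries at 5.35, 4.95 and 5.35 FPKM. These groups did not overlap either, but the difference of -0.24 (SE 0.091) missed the threshold (adjusted p = 0.0772) and passed it without control library 2 (-0.26, adjusted p = 0.00388) and after correction for transcript GC content (-0.26, adjusted p = 0.0218). In PaTu 8988T the controls were at 14.2, 13.6 and 13.2 FPKM and the knockdown libraries at 13.2, 12.2 and 11.9 FPKM. The groups were apart by a narrow margin, and the difference of -0.14 (SE 0.054, adjusted p = 0.0697) was called lower in 4 of 16 alternatives, with adjusted p between 0.0059 and 0.0472, 1 of them the fit without knockdown library 1 (-0.18, adjusted p = 0.0222).

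FANCI (chromosome 15, 89243949 to 89317261, plus strand), the partner of FANCD2 on DNA, was at 19.8, 19.1 and 20.3 FPKM in the PANC-1 controls and at 11.6, 11.8 and 10.7 FPKM after knockdown. It fell to 57.6% of control (log2 fold change -0.79, SE 0.050, adjusted p = 3.24e-07), and this call held in all 16 alternatives. In MIA PaCa-2 the controls at 18.3, 15.1 and 17.5 FPKM overlapped the knockdown libraries at 16.1, 17.2 and 15.2 FPKM. The difference there was -0.06 (SE 0.10, adjusted p = 0.651), and without control library 2, the lowest of the controls, it was -0.14 (adjusted p = 0.0373). In PaTu 8988T the controls at 23.8, 24.3 and 22.6 FPKM lay below the knockdown libraries at 26.2, 25.2 and 25.9 FPKM. FANCI rose there by 0.13 on the log2 scale (SE 0.043, adjusted p = 0.0384), a call that was lost in 11 of 16 alternatives, among them without each control library and without knockdown library 1 or 3, where the adjusted p lay between 0.0542 and 0.142. Its exons overlap those of POLG on the other strand over 5.9% of its exonic bases, and POLG, the mitochondrial DNA polymerase, fell from 21.4 to 16.8 FPKM in PANC-1 (log2 fold change -0.35, adjusted p = 1.2e-05).

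FANCL (chromosome 2, 58159243 to 58241372, minus strand), the catalytic RING subunit, rose in PANC-1, where FANCD2, FANCI, FANCA, FANCE and FANCG fell. Its PANC-1 controls were at 9.76, 9.12 and 9.37 FPKM and its knockdown libraries at 16.01, 17.1 and 14.7 FPKM. Every knockdown library was above every control, and the mean rose to 169% of control (log2 fold change 0.75, SE 0.060, adjusted p = 1.79e-06). In PaTu 8988T the controls were at 7.84, 8.30 and 6.95 FPKM and the knockdown libraries at 10.6, 10.2 and 12.1 FPKM. Again the groups were separate, with a rise to 142% of control (log2 fold change 0.50, SE 0.081, adjusted p = 0.00129). In PANC-1 and PaTu 8988T the call held in all 16 alternatives, with a lowest change of 0.68 in PANC-1 and 0.43 in PaTu 8988T. The MIA PaCa-2 controls were at 12.4, 9.55 and 13.8 FPKM and the knockdown libraries at 14.7, 16.5 and 15.4 FPKM. The knockdown libraries were higher without overlap, yet the change of 0.39 (SE 0.15) missed the threshold (adjusted p = 0.0705), and it passed without control library 2, the lowest control (0.24, adjusted p = 0.00635), without control library 3 (0.51, adjusted p = 0.0426) and after GC correction (0.33, adjusted p = 0.00351).

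The exons of FANCL share 18.74% of their bases with VRK2, a kinase gene on the other strand, and no source used here states whether counting used strand. VRK2 was at 11.9 FPKM in the PANC-1 controls and 10.7 FPKM after knockdown (log2 fold change -0.16, adjusted p = 0.0324). It went from 6.26 to 5.64 FPKM in MIA PaCa-2 and from 3.96 to 4.32 FPKM in PaTu 8988T, neither past the threshold. So FANCL was higher in PANC-1 while VRK2 was lower.

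Because FANCD2 and FANCL moved apart, their balance within a library shifted, a comparison chosen after their values were seen and given with no test. The ratio of FANCL to FANCD2 FPKM in PANC-1 was 1.01 ± 0.087 (SD, n = 3) in controls and 3.62 ± 0.33 after knockdown. In MIA PaCa-2 it was 1.93 ± 0.30 and 2.99 ± 0.30, and in PaTu 8988T 0.563 ± 0.043 and 0.884 ± 0.11. The ratio was higher in every knockdown library than in every control of the same line. The ratio of FANCI to FANCD2 moved less, from 2.12 to 2.58 in PANC-1, from 2.75 to 3.11 in MIA PaCa-2 and from 1.72 to 2.08 in PaTu 8988T.

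FANCB (chromosome X, 14835961 to 14873069, minus strand), which holds FANCL in the catalytic module, was the least abundant of the 10 genes in PANC-1. Its PANC-1 controls were at 0.625, 0.426 and 0.439 FPKM and its knockdown libraries at 0.456, 0.303 and 0.334 FPKM. The groups overlapped, and the gene lay under the minimum mean of 1 FPKM and was not tested there. With no minimum, its change was -0.36 (SE 0.20, adjusted p = 0.172). In MIA PaCa-2 the controls were at 2.74, 1.35 and 2.65 FPKM and the knockdown libraries at 2.21, 2.32 and 2.15 FPKM. Control library 2 was the lowest of the 6, and the change of 0.05 (SE 0.26, adjusted p = 0.892) became a fall of -0.27 (adjusted p = 0.015) without it. In PaTu 8988T the libraries overlapped between 1.25 and 1.76 FPKM, and the difference was 0.04 (SE 0.13, adjusted p = 0.844).

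FANCG and FANCA, which bind each other in the core complex, fell in both PANC-1 and MIA PaCa-2. FANCG (chromosome 9, 35073835 to 35080016, minus strand) was at 12.4, 10.3 and 11.4 FPKM in the PANC-1 controls and at 7.24, 6.30 and 7.42 FPKM after knockdown. In MIA PaCa-2 its controls were at 14.8, 19.6 and 14.5 FPKM and its knockdown libraries at 10.4, 11.2 and 10.0 FPKM. In both lines all knockdown libraries were below all controls, with control library 2 of MIA PaCa-2 the highest. FANCG fell to 61.6% of control in PANC-1 (log2 fold change -0.69, SE 0.082, adjusted p = 3.29e-05) and to 64.8% in MIA PaCa-2 (-0.61, SE 0.14, adjusted p = 0.0128). Without that control library, the MIA PaCa-2 change was -0.47 (adjusted p = 6.53e-05), and the call was lost without knockdown library 1 (adjusted p = 0.0563) or 3 (adjusted p = 0.0608). In PaTu 8988T, FANCG was the most abundant of the 10 genes in controls, at 25.3, 23.5 and 26.3 FPKM against 23.6, 25.8 and 23.5 FPKM after knockdown. These libraries overlapped, and the difference was -0.04 (SE 0.056, adjusted p = 0.56).

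FANCA (chromosome 16, 89737549 to 89816657, minus strand) was at 3.73, 3.94 and 3.54 FPKM in the PANC-1 controls and at 2.68, 2.26 and 2.53 FPKM after knockdown. It fell to 66.6% of control (log2 fold change -0.57, SE 0.091, adjusted p = 0.000263), a call kept in all 15 alternatives that tested it. In MIA PaCa-2 the controls were at 12.1, 14.7 and 12.1 FPKM and the knockdown libraries at 9.82, 9.08 and 9.86 FPKM. The groups were separate, and the fall of -0.43 (SE 0.11, adjusted p = 0.0216) was -0.33 without control library 2, the highest of the controls (adjusted p = 0.000335). It was lost without each knockdown library in turn, with adjusted p between 0.0735 and 0.0967. In PaTu 8988T the controls were at 14.2, 13.7 and 14.1 FPKM and the knockdown libraries at 14.9, 15.2 and 15.7 FPKM. That separation gave a rise of 0.13 (SE 0.043, adjusted p = 0.043), and the call was lost in 8 of 16 alternatives, among them without each control library or knockdown library 3 (adjusted p between 0.0885 and 0.163). FANCA shares 23.64% of its exonic bases with ZNF276 on the other strand, which went from 2.01 to 1.99 FPKM in PANC-1 and fell from 2.87 to 1.82 FPKM in MIA PaCa-2 (log2 fold change -0.61, adjusted p = 0.0359). Control library 2 was the highest of those ZNF276 controls, at 3.67 FPKM against 2.55 and 2.40 FPKM, and every knockdown library lay below all of them.

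The genes of the substrate-facing module, FANCC, FANCE and FANCF, did not share a direction. FANCE (chromosome 6, 35452356 to 35467103, plus strand), which contacts FANCD2, was at 2.26, 2.17 and 2.69 FPKM in the PANC-1 controls and at 1.66, 1.21 and 1.61 FPKM after knockdown. It fell to 63.0% of control there (log2 fold change -0.64, SE 0.14, adjusted p = 0.00216), a call kept in all 15 alternatives that tested it. In PaTu 8988T it went the other way, from 4.37, 4.05 and 3.86 FPKM in controls to 4.95, 5.06 and 5.18 FPKM. That rise to 124% of control (log2 fold change 0.30, SE 0.066, adjusted p = 0.00625) was lost in 1 of 15 alternatives, the fit of all 18 libraries (adjusted p = 0.109). In MIA PaCa-2 the libraries overlapped between 4.51 and 6.36 FPKM, and the difference was -0.05 with control library 2 and 0.07 without it, neither called.

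FANCF (chromosome 11, 22622890 to 22625841, minus strand), the adaptor between FANCC with FANCE and FANCA with FANCG, was at 6.81, 6.53 and 5.95 FPKM in the PANC-1 controls and at 9.36, 7.26 and 7.38 FPKM after knockdown. In MIA PaCa-2 its controls were at 8.43, 7.59 and 8.71 FPKM and its knockdown libraries at 11.5, 10.5 and 11.5 FPKM. In both lines all knockdown libraries were above all controls. FANCF rose to 136% of control in MIA PaCa-2 (log2 fold change 0.44, SE 0.096, adjusted p = 0.0121), a call lost without knockdown library 1 (adjusted p = 0.0658) or 3 (adjusted p = 0.0667) and kept without control library 2 (0.38, adjusted p = 0.000225). It rose to 124% in PANC-1 (0.30, SE 0.097, adjusted p = 0.0173), a call lost without control library 3 (adjusted p = 0.063) and after correction for transcript GC content (0.21, adjusted p = 0.0812). In PaTu 8988T its controls at 4.49, 4.32 and 4.42 FPKM lay within the knockdown range of 4.02 to 4.94 FPKM, and the difference was 0.01 (SE 0.080, adjusted p = 0.938). FANCF shares 11.28% of its exonic bases with GAS2 on the other strand, which rose from 1.16 to 1.74 FPKM in MIA PaCa-2 (log2 fold change 0.56, adjusted p = 0.0243) and stayed at or below 0.15 FPKM in PANC-1.

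FANCC (chromosome 9, 95099054 to 95426796, minus strand), which binds FANCE, was at 3.41, 3.92 and 3.31 FPKM in the MIA PaCa-2 controls and at 2.63, 2.59 and 2.52 FPKM after knockdown. It fell to 72.8% of control (log2 fold change -0.44, SE 0.11, adjusted p = 0.0196). The fall was -0.37 (adjusted p = 0.0015) without control library 2, and the call was lost without each knockdown library in turn (adjusted p between 0.0739 and 0.0876). In PANC-1, where its controls lay between 2.36 and 2.59 FPKM and its knockdown libraries between 2.54 and 2.84 FPKM, the difference was 0.07 (SE 0.090, adjusted p = 0.475). In PaTu 8988T it went from 4.20, 4.11 and 4.03 FPKM to 4.73, 4.46 and 4.74 FPKM. The rise of 0.17 (SE 0.061, adjusted p = 0.0491) was at the edge of the threshold and was lost in 10 of 15 alternatives. Among them were the fits without each control library and without knockdown library 1 or 3 (adjusted p between 0.0904 and 0.151).

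FANCM (chromosome 14, 45135940 to 45200890, plus strand), the translocase, was called in no line. Its libraries overlapped between 1.23 and 1.70 FPKM in PANC-1, between 1.52 and 2.61 FPKM in MIA PaCa-2 and between 1.85 and 2.37 FPKM in PaTu 8988T. The differences were -0.12 (SE 0.14), 0.15 (SE 0.21) and 0.08 (SE 0.11), with adjusted p of 0.437, 0.609 and 0.583 in the limma fits. Without control library 2 of MIA PaCa-2, the lowest of its 6 libraries, the difference in that line was -0.09 (adjusted p = 0.395). With all libraries, FANCB and FANCM were thus the 2 genes called in no line, and they were also the lowest in every line.

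**Figure D2:**
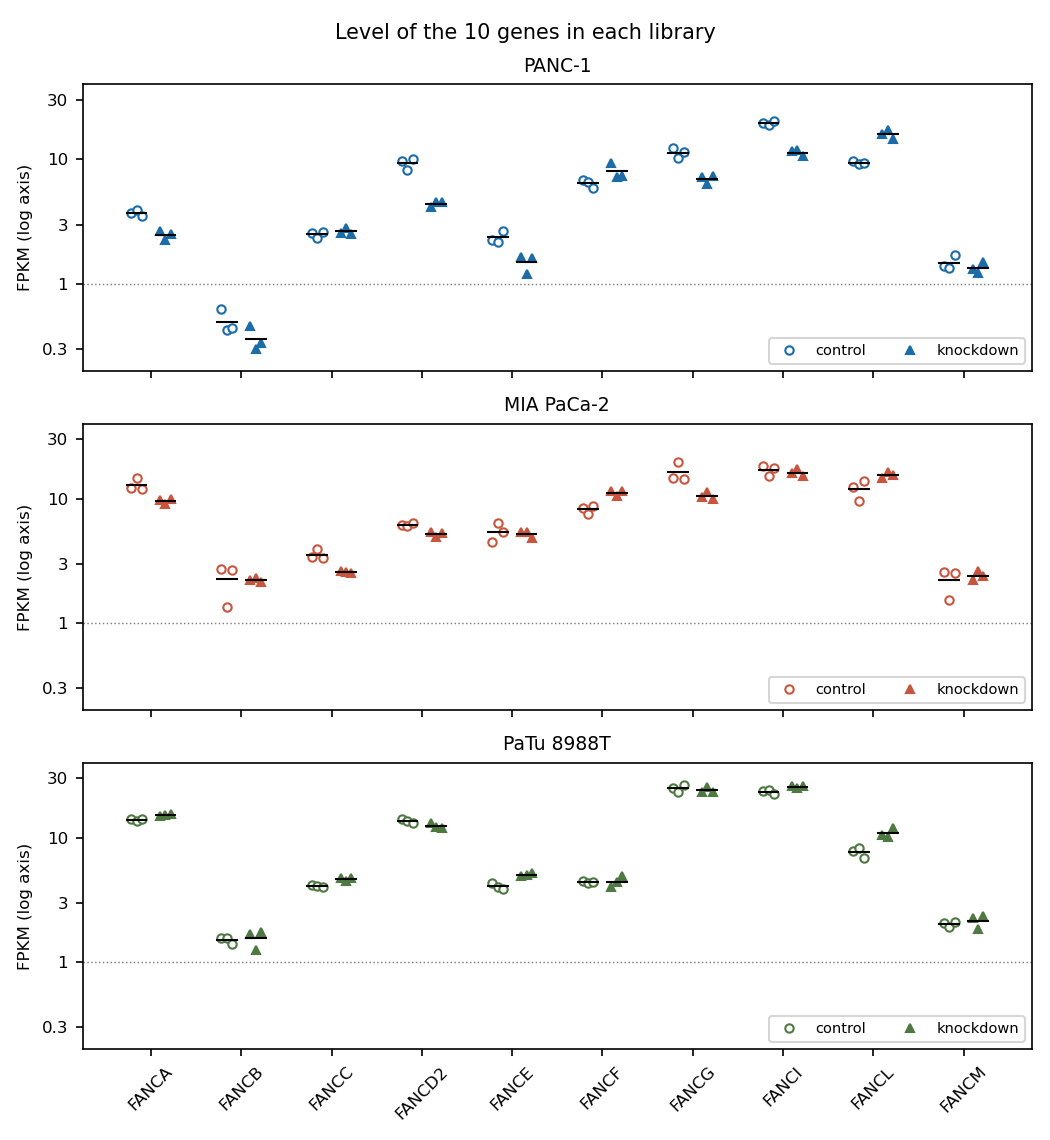
FPKM of the 10 genes in each of the 18 libraries on a log axis, with controls as open circles, knockdown libraries as filled triangles, bars at the group means and a dotted line at 1 FPKM. In PANC-1, FANCL rises from 9.42 to 15.96 FPKM on average while FANCD2 falls from 9.34 to 4.41 FPKM, and in MIA PaCa-2 control library 2 lies outside its 2 companions for all 10 genes.

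FPKM is a level per length, so the 10 genes can be ordered within a line, while the lengths behind the values of FANCB, FANCC, FANCI, FANCL and FANCM differed between PANC-1 and the other lines and levels were not compared across lines. In PANC-1 controls the order was FANCI (19.7 FPKM), FANCG (11.4), FANCL (9.42), FANCD2 (9.34), FANCF (6.43), FANCA (3.74), FANCC (2.50), FANCE (2.37), FANCM (1.48) and FANCB (0.496), of which the neighbours FANCL and FANCD2, and FANCC and FANCE, overlapped in their libraries. After knockdown in PANC-1, FANCL was first at 15.96 FPKM and FANCI, FANCF and FANCG all stood above FANCD2 at 4.41 FPKM. The highest mean was 39.7 times the lowest in the PANC-1 controls, 7.67 times in those of MIA PaCa-2 and 16.6 times in those of PaTu 8988T. In MIA PaCa-2 controls FANCI (16.96 FPKM), FANCG (16.3), FANCA (13.0) and FANCL (11.9) led, each overlapping the next. This order and the value of 7.67 include control library 2. In control libraries 1 and 3 alone, FANCI (18.3 and 17.5 FPKM), FANCG (14.8 and 14.5), FANCL (12.4 and 13.8) and FANCA (12.1 in both) followed in that order without overlap. In PaTu 8988T controls FANCG (25.1) and FANCI (23.5) led with overlapping libraries, ahead of FANCA (13.98) and FANCD2 (13.7), which overlapped as well.

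Control library 2 of MIA PaCa-2 deviated from the other 2 controls in step with the GC content of the transcript. Among the 10 genes, FANCB (36.4% GC) deviated by -0.95 on the log2 scale in this library and FANCM (37.7%) by -0.71, while FANCG (58.1%) deviated by 0.42 and FANCE (57.9%) by 0.35. Pearson's r across the 10 genes was 0.95, a description across genes of 1 library, which are not replicates. Over all genes tested in the line, the Spearman correlation of this library's deviation with GC content was 0.88. In PaTu 8988T, knockdown libraries 1 and 2 deviated with GC content in opposite directions, at -0.67 and 0.66, and by less (a median absolute difference of 0.0911 and 0.0930). After correction for GC content over all 6 libraries, FANCA (-0.32), FANCC (-0.39), FANCD2 (-0.26) and FANCG (-0.49) were called lower in MIA PaCa-2. FANCF (0.42) and FANCL (0.33) were called higher, while FANCB (-0.06) and FANCI (-0.09), called without the library, did not pass. Over all 10758 genes tested, this correction called 3450 lower and 3562 higher, against 2338 and 2012 without it.

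**Figure D3:**
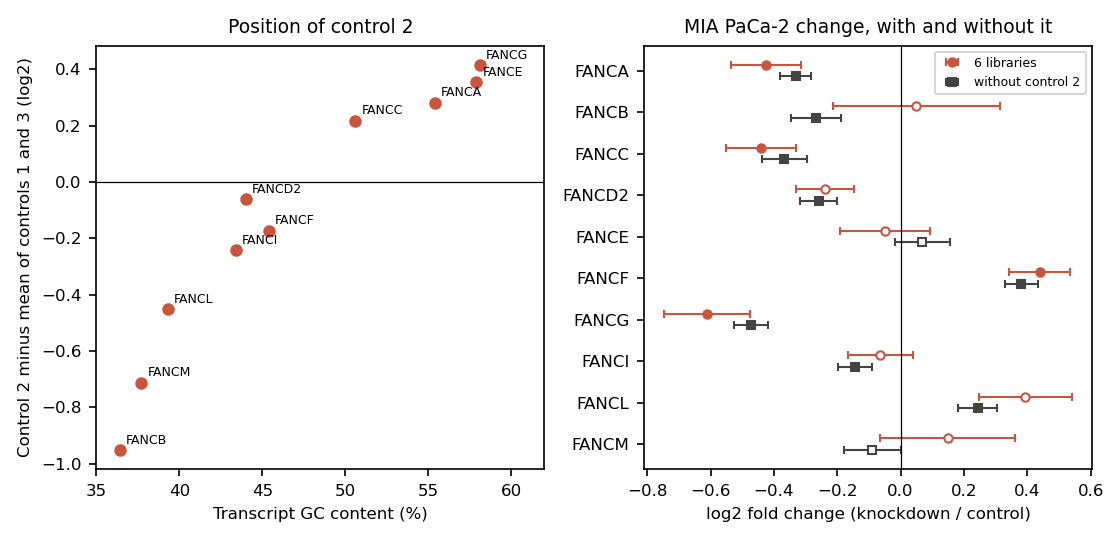
Left, deviation of MIA PaCa-2 control library 2 from the mean of the other 2 controls (log2) against transcript GC content, 1 point per gene. Right, log2 fold change with bars of 1 SE from all 6 libraries (circles) and without control library 2 (squares), filled where the adjusted p is under 0.05. FANCB moves from 0.05 to -0.27 and FANCD2 stays near -0.25.

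Whether a change differed between lines was tested by the interaction of line and knockdown in a limma fit of all 18 libraries, over 9083 genes. The 3 pairs of lines share libraries, and FANCB was not tested. Between PANC-1 and PaTu 8988T, the change differed for 5 of the 9 genes, each more negative in PANC-1, against 35.8% of all genes. The difference was -0.92 for FANCD2 (SE 0.11, adjusted p = 7.33e-06), -0.92 for FANCI (SE 0.098), -0.94 for FANCE (SE 0.18), -0.69 for FANCA (SE 0.11) and -0.65 for FANCG (SE 0.15, adjusted p = 0.00292). FANCI, FANCE and FANCA thus differed between lines in which they were called in opposite directions. Between PANC-1 and MIA PaCa-2, 4 of 9 genes differed, against 43.4% of all genes. These were FANCD2 (-0.82), FANCI (-0.73) and FANCE (-0.59), more negative in PANC-1, and FANCC (0.51), more negative in MIA PaCa-2. Between MIA PaCa-2 and PaTu 8988T, 4 of 9 genes differed, against 52.9% of all genes, with FANCA (-0.55), FANCC (-0.61) and FANCG (-0.57) more negative in MIA PaCa-2 and FANCF (0.43) more positive.

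The difference for FANCL passed the threshold in none of the 3 pairs with all libraries, at 0.25 (SE 0.16, adjusted p = 0.242) between PANC-1 and PaTu 8988T, 0.36 (SE 0.16, adjusted p = 0.0784) between PANC-1 and MIA PaCa-2, and -0.11 (SE 0.16, adjusted p = 0.59) between MIA PaCa-2 and PaTu 8988T. Without control library 2 of MIA PaCa-2, which sets part of the spread shared by all lines in this fit, it passed in all 3, at 0.25 (adjusted p = 0.0485), 0.51 (adjusted p = 0.000634) and -0.26 (adjusted p = 0.045). The rise of FANCL was then greatest in PANC-1 and least in MIA PaCa-2. OFD1 itself fell less in MIA PaCa-2 than in PANC-1 (difference -0.46, adjusted p = 0.0331) and PaTu 8988T (0.49, adjusted p = 0.0193), and its change in PANC-1 and PaTu 8988T differed by 0.03 (SE 0.16, adjusted p = 0.906).

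The rest of the pathway was followed in a list of 34 genes. In PANC-1, 17 were lower, 7 were higher and 10 were not called of 34 tested, with a median log2 fold change of -0.16, where 32.2% of all genes were lower and 40.1% higher. In MIA PaCa-2, 9 were lower and 2 higher of 33 tested (median -0.12), against 21.7% and 18.7% of all genes, and without control library 2 the counts were 16 and 7, against 39.8% and 35.4%. In PaTu 8988T, 4 were lower and 4 higher of 32 tested (median 0.01), against 18.5% and 20.9% of all genes. The MIA PaCa-2 and PaTu 8988T counts were near or below the shares of all genes. In PANC-1 UBE2T and USP1, enzymes that act with FANCL and on ubiquitinated FANCD2, both fell. ATAD5, grouped with USP1 and WDR48 in the list, fell there as well (log2 fold change -1.08, adjusted p = 6.91e-05) and was called in neither other line. WDR48, the partner of USP1, rose from 10.2 to 12.8 FPKM in PANC-1 (log2 fold change 0.32, adjusted p = 0.000303). In MIA PaCa-2 its knockdown libraries (7.85, 8.12 and 8.63 FPKM) lay above its controls (6.75, 4.88 and 6.73 FPKM), but the change of 0.43 missed the threshold (adjusted p = 0.0544). It was at 0.03 in PaTu 8988T (adjusted p = 0.655). WDR48 and ATAD5 were named after their values were seen. UBE2T, the E2 enzyme, fell from 42.1 to 21.3 FPKM in PANC-1 (log2 fold change -0.98, adjusted p = 2.69e-07) and from 23.1 to 13.6 FPKM in MIA PaCa-2 (-0.75, adjusted p = 0.00856), and rose from 47.7 to 53.9 FPKM in PaTu 8988T (0.17, adjusted p = 0.0122). The PaTu 8988T rise was lost in the fit of all 18 libraries (adjusted p = 0.275) and after GC correction (adjusted p = 0.0734). USP1, the deubiquitinase, fell from 21.7 to 10.5 FPKM in PANC-1 (-1.04, adjusted p = 1.48e-07) and from 33.8 to 15.6 FPKM in MIA PaCa-2 (-1.08, adjusted p = 0.00692), while the PaTu 8988T values were 22.6 and 24.4 FPKM (0.11, adjusted p = 0.323). Without control library 2, the MIA PaCa-2 changes were -0.88 for UBE2T and -1.32 for USP1, both called.

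Of the core-associated proteins, FAAP24, the partner of FANCM, rose in PANC-1 (log2 fold change 0.46, adjusted p = 0.000222) and PaTu 8988T (0.24, adjusted p = 0.0212) and was at -0.37 in MIA PaCa-2 (adjusted p = 0.106). The PaTu 8988T call of FAAP24 was lost without control library 1 (adjusted p = 0.06) or 2 (adjusted p = 0.0769). FAAP100, which joins FANCB and FANCL, was called in no line with all libraries, at -0.05 in PANC-1, -0.12 in MIA PaCa-2 and -0.14 in PaTu 8988T, and without control library 2 it was called higher in MIA PaCa-2 (0.17, adjusted p = 0.0369). Among the 8 homologous recombination genes of the list, 6 fell and 1 rose in PANC-1, 3 fell in MIA PaCa-2, and 1 fell and 1 rose in PaTu 8988T, to be read against the shares of all genes given for each line. BRCA1 fell in all 3 lines, with log2 fold changes of -1.66, -1.18 and -1.22 (adjusted p = 4.03e-08, 0.00237 and 3.76e-06). BRCA2 fell in PANC-1 (-0.47, adjusted p = 0.00757) and was at 0.43 in MIA PaCa-2 and -0.17 in PaTu 8988T, neither called. In MIA PaCa-2 the value was 0.07 without control library 2 and ran up to 0.63 without another library, and after GC correction BRCA2 was called in both lines (0.32, adjusted p = 0.0332, and -0.19, adjusted p = 0.0439). PALB2, which links BRCA1 to BRCA2, rose in PANC-1 (0.24, adjusted p = 0.00673) and was at 0.14 in MIA PaCa-2 (-0.05 without control library 2) and -0.01 in PaTu 8988T. The PANC-1 calls of BRCA2 (adjusted p = 0.0636) and PALB2 (adjusted p = 0.113) were lost in the fit of all 18 libraries. RAD51C, a recombination gene, fell in MIA PaCa-2 (-0.75, adjusted p = 0.00282) and was at -0.02 in PANC-1 and 0.16 in PaTu 8988T.

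Of the nucleases, EME1, the partner of MUS81, fell in PANC-1 (log2 fold change -0.88, adjusted p = 4.1e-07), MIA PaCa-2 (-0.45, adjusted p = 0.0105) and PaTu 8988T (-0.33, adjusted p = 0.00221). ERCC1, the partner of ERCC4, fell in PANC-1 (-0.21, adjusted p = 0.00897) and PaTu 8988T (-0.22, adjusted p = 0.00377) and rose in MIA PaCa-2 (0.59, adjusted p = 0.0129). In MIA PaCa-2, the EME1 call was lost without knockdown library 1 or 2 (adjusted p = 0.0576 and 0.0571) and the ERCC1 call without knockdown library 1 or 3 (adjusted p = 0.0516 and 0.0592). In the fit of all 18 libraries ERCC1 was not called in PANC-1 (adjusted p = 0.0691) or PaTu 8988T (adjusted p = 0.116). Without control library 2, BRCA1 (-1.37), RAD51C (-0.85), EME1 (-0.39) and ERCC1 (0.74) kept their MIA PaCa-2 calls. BRCA1 and EME1 were lower in PaTu 8988T, where none of the 10 core and ID2 genes was called lower.

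The helicase subunits MCM2 to MCM7, which license replication origins, were set beside the 10 genes, with the shares of all genes called in each line as given above. All 6 fell in PANC-1, with log2 fold changes of -0.99 to -0.66, and all 6 fell in MIA PaCa-2, with -0.85 to -0.55 (-0.88 to -0.48 without control library 2, all called). In PaTu 8988T, 5 rose, by 0.14 to 0.28, and MCM5 was at 0.15 (adjusted p = 0.0647). The call of MCM2 was lost in MIA PaCa-2 without each knockdown library (adjusted p between 0.0599 and 0.0671). In PaTu 8988T the MCM2 call was lost in 8 of 16 alternatives. Among them were the fits without control library 1 or 2 or knockdown library 2 or 3 (adjusted p between 0.0712 and 0.129). With all libraries, their median change was -0.78 in PANC-1, -0.73 in MIA PaCa-2 and 0.17 in PaTu 8988T. The medians of the core and ID2 genes were -0.57, -0.06 and 0.10. Without control library 2 of MIA PaCa-2, the 10 genes ran from -0.47 to 0.38 in that line, with 6 called lower and 2 higher. The part of a changed share of replicating cells in these values was not tested, and in bulk RNA fewer cells of a kind cannot be told apart from less RNA per cell.

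**Figure D4:**
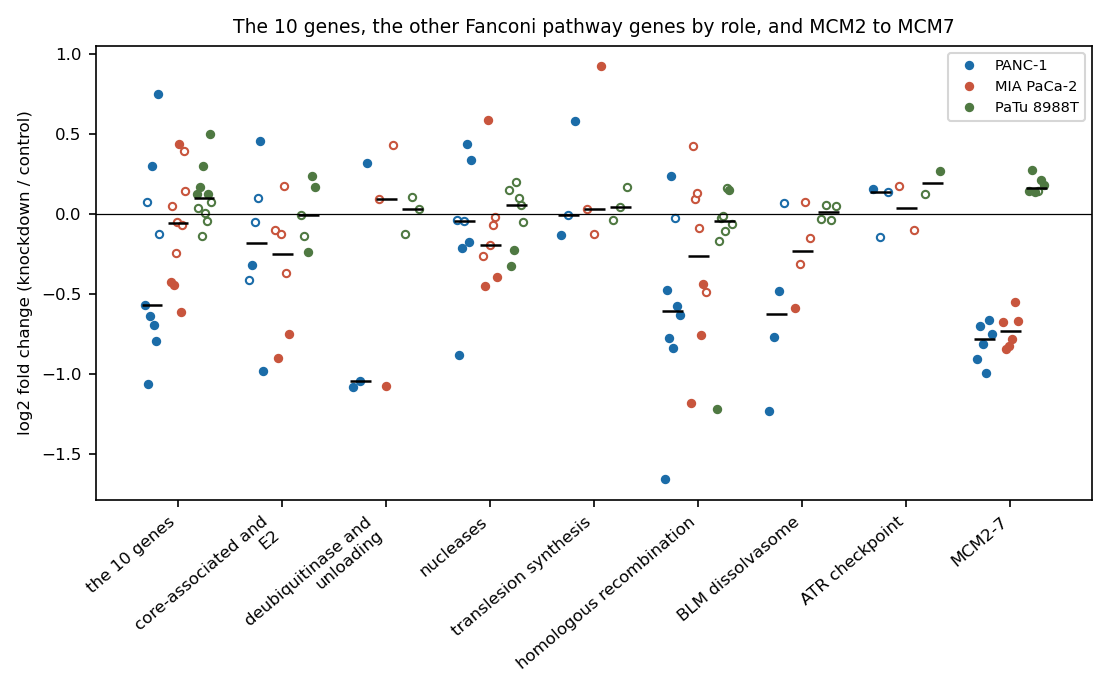
Log2 fold change of the 10 genes, of the 34 other pathway genes by role and of MCM2 to MCM7, 1 point per gene and line, filled where the adjusted p is under 0.05, with bars at the medians. With all libraries, the medians of the 10 genes are -0.57 in PANC-1, -0.06 in MIA PaCa-2 and 0.10 in PaTu 8988T. Those of MCM2 to MCM7 are -0.78, -0.73 and 0.17.

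Across the 18 libraries, with each line centred on its own mean, some partners ran together and others did not. Pearson's r of log2 values was 0.92 for FANCA with FANCG and 0.90 for FANCD2 with FANCI, the highest of all pairs among the 9 genes tested in every line, and -0.83 for FANCG with FANCL, the lowest. Within the module of FANCC, FANCE and FANCF, r was -0.61 for FANCC with FANCF, -0.40 for FANCE with FANCF and 0.11 for FANCC with FANCE. These are descriptions over libraries that share the knockdown contrast and their composition, with no p-value. They include control library 2 of MIA PaCa-2, which deviated by 0.28 for FANCA, 0.42 for FANCG and -0.45 for FANCL, and by -0.06 for FANCD2 and -0.24 for FANCI. The part of that library in these correlations was not tested. Of the 9074 other genes, those like the mean of FANCD2 and FANCI included SLC39A14 (r = 0.97), a zinc and iron transporter, MAD2L1 (0.96), a spindle checkpoint protein, CIT (0.96), a cytokinesis kinase, and CD44 (0.96), a hyaluronan receptor. Those most like the mean of the 7 core genes tested in every line were DKK1 (0.87), AFG3L2 (0.85), NCAPD3 (0.85), BUB3 (0.82) and SELENOS (0.82). DKK1, a secreted Wnt antagonist, changed by -0.70 in PANC-1, -0.19 in MIA PaCa-2 and 0.96 in PaTu 8988T.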

How the data were processed

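RNA-seq of 18 libraries was analysed. According to the methods of the study, the authors mapped reads with HISAT2, counted them with HTSeq-count and deposited FPKM values, in which reads per gene are divided by gene length and library size. The methods name TRIzol and a VAHTS kit, and the labels another extraction and library kit. The strand setting is not given in the sources used here. The builds GRCm38, mm10 and hg38 stand in the submitters' processing notes. Depth was recovered from the steps in the values, and 98.6% to 98.9% of gene lengths came out within 0.1 of a whole number.

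Within each line, genes with a mean of at least 1 FPKM over 6 libraries were kept, and log2(FPKM + 0.1) was fitted with limma 3.58.1 (lmFit, eBayes with trend) in R 4.3.3. Because the values are not counts, limma took the place of the DESeq2 test that the authors ran. P-values were adjusted by Benjamini-Hochberg over all genes of the line, and fold changes of low genes are understated on this scale. Differences between lines were interactions in a fit of all 18 libraries. Voom on recovered reads, other pseudocounts, filters and scalings, a replicate block and leaving out each library were alternatives. A correction for transcript GC content, available for at least 95.1% of tested genes, was added after the data had been seen. No 2 libraries of a group were alike within sampling noise (chi-square per degree of freedom 3.06 or more). Named were the 10 genes, OFD1, MCM2 to MCM7, the 5 genes most like each profile, and of the other pathway genes those with the 3 smallest p-values in each line and 7 fixed names. Of the genes most like a profile, 1 is not reported here. The members and lists were chosen with earlier results of these data known. Positions came from GENCODE and promoters from RefSeq, both on GRCh38.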

Additional observations from a re-analysis of the deposited data

Results flagged for a closer look

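Results were singled out where the change of a gene differed between 2 lines by the interaction test, at an adjusted p under 0.05 over 9083 genes. Each value is the log2 fold change in the first line minus that in the second. For PANC-1 minus PaTu 8988T the differences were -0.69 for FANCA, -0.92 for FANCD2, -0.94 for FANCE, -0.65 for FANCG and -0.92 for FANCI. For MIA PaCa-2 minus PaTu 8988T they were -0.55 for FANCA, -0.61 for FANCC, 0.43 for FANCF and -0.57 for FANCG. For PANC-1 minus MIA PaCa-2 they were 0.51 for FANCC, -0.82 for FANCD2, -0.59 for FANCE and -0.73 for FANCI. Without control library 2 of MIA PaCa-2, all 13 of these differences stayed past the threshold. Without it 6 more passed, FANCL in all 3 pairs, FANCF in PANC-1 minus PaTu 8988T (0.29, adjusted p = 0.0467), FANCI in MIA PaCa-2 minus PaTu 8988T (-0.27, adjusted p = 0.00281) and FANCA in PANC-1 minus MIA PaCa-2 (-0.24, adjusted p = 0.0254). Groups of 3 libraries are too small for a test of single outlying libraries.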

How the results depend on the processing

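The counts of the 10 genes called in PANC-1, 5 lower and 2 higher, were the steadiest. Requiring a fold change above 2 or below 0.5 left 1 lower and 0 higher in PANC-1, 0 and 0 in MIA PaCa-2 and 0 higher in PaTu 8988T. Over all genes this rule left 528 lower and 191 higher in PANC-1, 396 and 438 in MIA PaCa-2 and 17 higher in PaTu 8988T. A minimum mean of 5 FPKM, which removes genes from the test, left 3 lower members in PANC-1 and 3 higher in PaTu 8988T, 9 lower other pathway genes in PANC-1, 1 higher in MIA PaCa-2 and 2 lower in PaTu 8988T, and 3, 1 and 2 members whose change differed in PANC-1 minus PaTu 8988T, MIA PaCa-2 minus PaTu 8988T and PANC-1 minus MIA PaCa-2. Over all genes, the minimum of 5 FPKM left 2667 lower of 7858 in PANC-1 and 1204 higher of 7171 in MIA PaCa-2. It left 1240 lower and 1937 higher of 7147 in PaTu 8988T. In PaTu 8988T, the 5 higher members became 3 with no minimum or no variance trend and 2 with median-ratio scaling. The fit of all 18 libraries left 1 higher member, and there 2 other pathway genes were lower and 0 higher. The higher calls over all PaTu 8988T genes also fell, from 2235 of 10698 to 1729 of 21498 with no minimum. Of 10698 genes, 1931 were higher with no variance trend, 1788 with median-ratio scaling and 1011 in the fit of all 18 libraries. FANCD2 became the 1 lower member in PaTu 8988T with median-ratio scaling, voom or GC correction. In MIA PaCa-2, 2 members were higher in the fit of all 18 libraries and with GC correction. These settings called 3047 and 3562 of all 10758 genes higher, against 2012 in the main fit. GC correction left 1 higher member in PANC-1 and 3 in PaTu 8988T and called 5 other pathway genes higher in MIA PaCa-2. Over all genes it called 3950 higher in PANC-1 and 2529 in PaTu 8988T, against 4375 and 2235 in the main fits. OFD1 in MIA PaCa-2 had an adjusted p of 0.0504 with no minimum, its change of -0.61 the same. Voom on recovered reads called 3472 genes lower and 4636 higher in PANC-1, against 3507 and 4375.

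Leaving out each library in turn gave 5 lower and 1 to 2 higher members in PANC-1. It gave 0 to 6 lower and 0 to 2 higher in MIA PaCa-2, and 0 to 1 lower and 2 to 5 higher in PaTu 8988T. These fits tested 10679 to 10911 genes each. Over all genes they called 3297 to 3414 lower and 4089 to 4166 higher in PANC-1. The ranges were 1319 to 4287 lower and 1101 to 3811 higher in MIA PaCa-2, and 1528 to 2030 and 1461 to 2494 in PaTu 8988T. In MIA PaCa-2 the highest counts over all genes came without control library 2. For other pathway genes, leaving out each library gave 5 to 16 lower and 0 to 7 higher in MIA PaCa-2 and 2 to 7 higher in PaTu 8988T. Differing members ran from 5 to 7, 4 to 6 and 4 to 6 in the 3 pairs. OFD1 in MIA PaCa-2 ran from -0.76 to -0.52, with adjusted p up to 0.0899.

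Some values changed sign. GC correction turned FANCC in PANC-1 to -0.015, FANCB and FANCE in MIA PaCa-2 to -0.059 and 0.072, FANCF in PaTu 8988T to -0.043 and FAAP100 to 0.055 in PANC-1 and 0.089 in MIA PaCa-2. Median-ratio scaling turned FANCF in PaTu 8988T to -0.012. Leaving out each library gave ranges that cross 0. In MIA PaCa-2 these ran from -0.267 to 0.22 for FANCB, -0.174 to 0.069 for FANCE, -0.089 to 0.275 for FANCM, -0.28 to 0.165 for FAAP100 and -0.048 to 0.248 for PALB2, and in each case the value that crossed was the fit without control library 2, of which FANCB (adjusted p = 0.015) and FAAP100 (adjusted p = 0.0369) were called. In PaTu 8988T they ran from -0.048 to 0.184 for FANCB, -0.067 to 0.079 for FANCF and -0.066 to 0.045 for PALB2, and in PANC-1 from -0.141 to 0.053 for FAAP100 and -0.091 to 0.09 for RAD51C, none of them called. Of 452 values of the 10 genes under alternatives, 383 kept their direction and side of the threshold, 44 lost a call, 12 gained one and 13 turned. The causes were not tested.

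Deviations of same-numbered control and knockdown libraries correlated at -0.11 to 0.13, and those of unlike-numbered ones at -0.23 to 0.23. Library-wide shifts with GC content enter these deviations, so pairing by culture or batch cannot be judged from them. With a replicate block, the lower members in MIA PaCa-2 went from 3 to 1 and the higher ones in PaTu 8988T from 5 to 2. The counts in PANC-1 stayed at 5 and 2. Over all genes, the lower calls in MIA PaCa-2 went from 2338 to 1818 and the higher ones in PaTu 8988T from 2235 to 2019. In PANC-1 they went from 3507 to 3515 lower and from 4375 to 4369 higher. FANCB had the fewest reads of the 10 genes in PANC-1, from 76 to 173 per library, where it was tested only with no minimum. In MIA PaCa-2 the SE of FANCB went from 0.26 to 0.080 without control library 2 and that of FANCM from 0.21 to 0.090. The SE was smaller in that fit for each of the 10 genes, as for FANCG (0.14 to 0.053), and for OFD1 (0.16 to 0.090). The cause was not tested.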
